A study of Mus musculus with 36 samples.

Results

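Resident microglia, the macrophages that live inside the brain and spinal cord, were followed through 9 marker genes: P2ry12, P2ry13, Tmem119, Cx3cr1, Fcrls, Siglech, Sall1, Gpr34 and Olfml3. They were the rows of the raw expression table whose Ensembl identifiers carry these symbols in the GENCODE M21 annotation, 9 of 55487 genes. The rule goes by symbol and uses no measured value, but the symbols were picked with earlier results of these data known. The table came from 36 RNA sequencing libraries of female mice, 18 of dorsal spinal cord and 18 of dorsal root ganglion (DRG), the ganglion that holds the cell bodies of sensory neurons. Mice were knockout or wild type for the 1 gene the study targeted, and were taken after spared nerve injury (SNI), in which some branches of the sciatic nerve are cut and one is left whole, or naive, without that injury. In each tissue there were 4 knockout SNI, 5 knockout naive, 4 wild-type SNI and 5 wild-type naive libraries. The sources used here do not give the strain, the design of the knockout allele, the age of the mice or the time after injury. They do not say either that each library came from its own animal, so the p-values measure the spread between libraries.

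Library codes below (A2, B4 and so on) are those of the sample titles. Letters A, B and C are naive libraries, and E and F are SNI libraries. No letter holds both states, so a letter effect and the injury effect cannot be told apart. Naive DRG libraries A2 and A4 carried the word wild type in the title and knockout in the genotype field, and were placed with the knockouts. CPM below are counts per M reads (M, mega), after scaling of library sizes. The libraries held between 21.34 and 27.27 M estimated reads. Cord glia genes summed to 4199 to 6016 CPM in cord and 27.2 to 46.7 CPM in DRG, and DRG neuron genes to 22.6 to 63.5 CPM in cord and 1674 to 3242 CPM in DRG. Values after ± are SD for levels and standard errors for log2 fold changes. A gene is called when its Benjamini-Hochberg adjusted p, in the quasi-likelihood test of edgeR over all genes tested, is under 0.05.

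Microglia arise from yolk sac precursors, depend on the receptor of colony stimulating factor 1 and keep a surveying state through TGF-beta signalling. In that state they carry a set of genes often called homeostatic, many of which encode sensors of the surrounding tissue. P2ry12 encodes the ADP receptor that steers microglial processes towards injured cells, and P2ry13 a second ADP receptor from the same gene cluster. Gpr34 encodes a receptor for lysophosphatidylserine, Cx3cr1 the receptor of the neuronal chemokine fractalkine, and Siglech a sialic acid binding lectin also known from plasmacytoid dendritic cells. Tmem119 encodes a membrane protein used as a microglia marker, Fcrls a scavenger receptor of the Fc receptor-like family, Sall1 a zinc finger transcription factor that keeps microglial identity, and Olfml3 a secreted protein of the olfactomedin family. Many sensory neurons of the sciatic nerve end in the dorsal horn, where microglia are known to respond to injury of that nerve. The ganglion outside the central nervous system holds macrophages of its own, which share some of these genes.

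All 9 genes are protein coding, and their places are given in the GRCm38 build. P2ry12 (chromosome 3, 59216272 to 59262871, minus strand) and P2ry13 (chromosome 3, 59207892 to 59210882, minus strand) lie within the span of Med12l on the opposite strand, with 9 and 0 exonic bases shared. Fcrls (87250758 to 87263738, minus) and Olfml3 (103722222 to 103738001, minus) are on chromosome 3 as well. Gpr34 (chromosome X, 13632089 to 13640858, plus) lies within Cask on the opposite strand and shares 0 exonic bases with it. Tmem119 lies on chromosome 5 (113793729 to 113800516, minus), Siglech on chromosome 7 (55768178 to 55778925, plus), Sall1 on chromosome 8 (89027235 to 89044162, minus) and Cx3cr1 on chromosome 9 (119901616 to 120069879, minus). Cx3cr1 shares 78 exonic bases with the antisense gene Gm33858. The libraries were stranded, but the sources used here leave out the strand setting of the counting, so reads in the shared bases cannot be told apart. All 9 genes passed the filter on low counts in every fit, whatever group carried them.

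In naive wild-type mice all 9 genes were detected in both tissues, and they did not share one tissue pattern. In the fit over 36 libraries, 7 were higher in cord than in DRG (36.6% of all genes tested were) and 2 were lower (40.1%). All 9 thus differed, where 76.7% of all genes did. Sall1 separated the tissues most among the 9. It had 40.3, 36.4, 35.4, 41.6 and 40.9 CPM in cord, against 0.516, 0.458, 0.622, 0.75 and 1.14 CPM in DRG (log2 fold change of cord over DRG 5.86 ± 0.13, edgeR adjusted p = 2.77e-29). The DRG values of Sall1 rested on 11 to 32 reads per library. The ADP receptor gene P2ry13 was 5.13-fold higher in cord (2.36 ± 0.15), Siglech 3.67-fold (1.88 ± 0.32) and P2ry12 3.41-fold (1.77 ± 0.07). Tmem119 (1.53 ± 0.14), Gpr34 (1.45 ± 0.18) and Cx3cr1 (1.09 ± 0.12) followed, with adjusted p from 4.94e-12 to 7.36e-09 by edgeR. In all 7 the lowest cord library was above the highest DRG library. How many of all genes are separated in this way was not counted, here or for the groups below that did not overlap.

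Fcrls and Olfml3, though counted as microglia markers, were lower in cord. Fcrls had 9.87, 6.69, 8.51, 5.98 and 8.44 CPM in wild-type naive cord, against 18.7, 18.9, 11.96, 12.4 and 18.5 CPM in DRG (-0.94 ± 0.17, adjusted p = 1.18e-05, edgeR). Olfml3 had 15.2, 12.7, 13.5, 13.2 and 12.5 CPM in cord, against 29.7, 41.5, 20.6, 35.3 and 49.8 CPM in DRG (-1.31 ± 0.15, adjusted p = 3.65e-09, edgeR). For both genes each cord library was below each DRG library. Other lists of genes split in the same comparison. Of 12 general myeloid genes 4 were higher and 4 lower in cord (median -0.12). Of 15 regulators and growth signals of microglia 5 were higher and 9 lower (median -0.58). Of 14 other homeostatic microglia genes 8 were higher and 3 lower in cord (median 0.72), whereas all 10 border and peripheral macrophage genes, among them the chemokine receptor gene Ccr2 (-4.09 ± 0.27) and Ms4a7 (-3.22 ± 0.28), were lower (median -2.60), beside a median of -0.06 over all genes tested. In bulk tissue, fewer cells of a type and less RNA per cell cannot be told apart.

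Levels of different genes were compared as CPM per kilobase of annotated exon. In naive wild-type cord P2ry12 had the highest level (10.8 ± 1.16 CPM per kb, n = 5), followed by Cx3cr1 (7.74 ± 0.422), Sall1 (7.39 ± 0.537), Tmem119 (6.3 ± 0.319), Gpr34 (5.24 ± 0.584), P2ry13 (3.96 ± 0.482), Fcrls (3.38 ± 0.667), Siglech (2.61 ± 0.316) and Olfml3 (2.18 ± 0.174). Cx3cr1 and Sall1 lay closer together than 1 SD of either, and P2ry13 and Fcrls closer than the SD of Fcrls. The order in naive wild-type DRG began with Fcrls (6.89 ± 1.52 CPM per kb) and Olfml3 (5.75 ± 1.81), which differed by less than either SD. Cx3cr1 (3.86 ± 0.865), P2ry12 (3.36 ± 0.271), Tmem119 (2.31 ± 0.63) and Gpr34 (2.03 ± 0.608) were next, and P2ry13 (0.813 ± 0.142), Siglech (0.754 ± 0.275) and Sall1 (0.132 ± 0.0515) last. The genes that led in cord were thus not those that led in DRG.

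**Figure D1:**
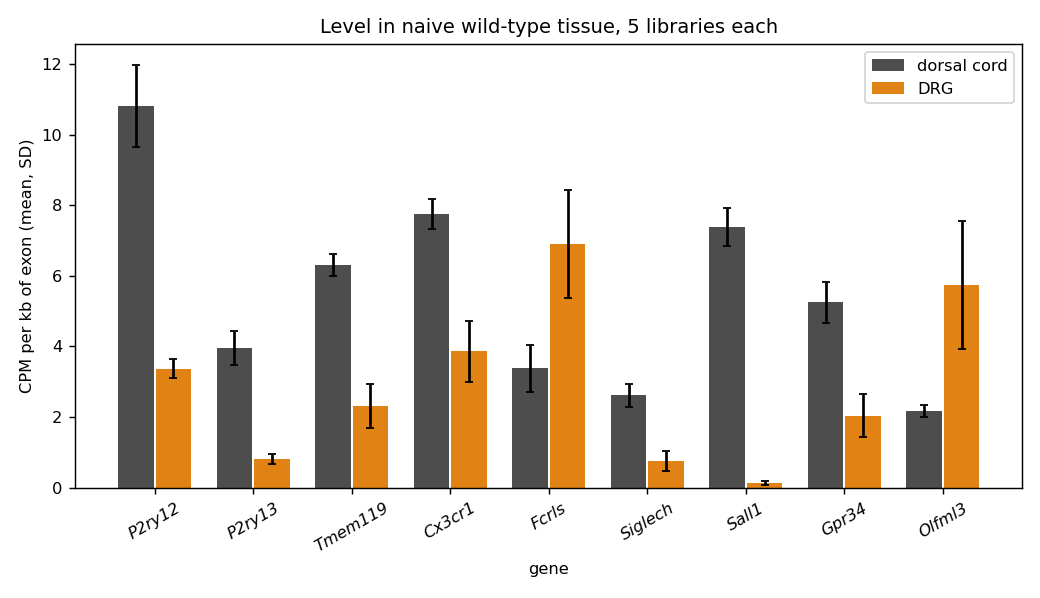
Mean level of each gene in naive wild-type tissue, in CPM per kb of annotated exon, with cord in grey on the left and DRG in orange on the right (bars are means, whiskers SD, 5 libraries each). P2ry12 is highest in cord at 10.8 CPM per kb, Fcrls and Olfml3 are the pair with the taller DRG bar, and Sall1 is at 0.132 CPM per kb in DRG.

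Start sites of 7 of the 9 genes could be matched to a table of RefSeq promoter windows (GRCm38.p6), and those of Tmem119 and Gpr34 were not matched. The 250 bases before the start were searched on both strands for GAGGAA, the PU box bound by PU.1, the myeloid factor encoded by Spi1. It was found in the windows of P2ry13 and Fcrls, and in 23.3% of 32851 windows over all genes. Neither the ETS-IRF composite motif (2.3% of all windows) nor the IRF motif (2.98%) was found in a window of these 7 genes. Both were searched on either strand, and they share letters with each other. A pair of windows outside annotated exons is shown because their genes moved opposite ways between the tissues. P2ry13 was higher and Olfml3 lower in cord. The PU box did not follow that direction over the other genes. Fcrls, which has it, was lower in cord, and P2ry12, Cx3cr1, Siglech and Sall1, higher in cord, have none. All 250 bases of the P2ry12 and the Cx3cr1 window lie in annotated exons, as do 136 bases of the Fcrls and 6 of the Siglech window. Capitals mark the PU box, 48 to 43 bases before the start of P2ry13, and the Olfml3 window holds none.
P2ry13, chr3:59210883-59211132, minus strand: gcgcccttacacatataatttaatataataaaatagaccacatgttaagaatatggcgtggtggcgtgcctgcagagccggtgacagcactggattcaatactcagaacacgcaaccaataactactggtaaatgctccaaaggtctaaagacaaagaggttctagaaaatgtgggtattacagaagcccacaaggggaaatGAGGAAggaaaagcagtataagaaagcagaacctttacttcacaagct
Olfml3, chr3:103738002-103738251, minus strand: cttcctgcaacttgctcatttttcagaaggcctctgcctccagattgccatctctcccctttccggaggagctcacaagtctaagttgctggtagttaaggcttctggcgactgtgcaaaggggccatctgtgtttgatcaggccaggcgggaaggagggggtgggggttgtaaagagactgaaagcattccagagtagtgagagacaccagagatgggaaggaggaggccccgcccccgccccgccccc
A match of letters is a description of the window and does not show binding.

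After SNI the marker set rose in dorsal cord in both genotypes. In knockout cord 9 of 9 genes rose (3.79% of all genes tested did, and 4.42% changed either way). In wild-type cord 8 of 9 rose (2.61%, and 2.88% changed either way), all but Sall1. The median log2 fold change of the 9 was 1.12 in knockout and 0.91 in wild-type cord, close to a doubling in level, beside medians of -0.01 over all genes in each genotype. P2ry12 had 64.6, 67.5, 66.1 and 60.4 CPM in knockout SNI cord, against 31.5, 29.6, 30.9, 31.3 and 33.5 CPM in knockout naive cord (2.06-fold, log2 fold change 1.04 ± 0.06, adjusted p = 1.03e-11, edgeR). In wild-type cord it had 55.2, 55.7, 48.1 and 51.9 CPM after SNI, against 28.2, 26.3, 26.3, 24.5 and 32.2 CPM in naive libraries (1.92-fold, 0.94 ± 0.06, adjusted p = 1.24e-10, edgeR). SNI and naive libraries did not overlap in either genotype.

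Tmem119 rose by the same factor, 2.27-fold, in both genotypes (1.19 ± 0.07 in knockout and 1.18 ± 0.07 in wild-type cord). It had 30.8, 33.4, 35.5 and 32.9 CPM in knockout SNI cord, against 12.8, 16.8, 13.3, 14.1 and 15.9 CPM in knockout naive cord. Wild-type SNI cord had 31.7, 36.1, 32.9 and 31.9 CPM, against 14.7, 14.7, 13.4, 15.5 and 14.6 CPM in wild-type naive cord. The ranges of the genotypes overlapped in both states for this gene. The fractalkine receptor gene Cx3cr1 rose 2.21-fold in knockout (1.14 ± 0.06, adjusted p = 7.67e-12) and 2.01-fold in wild-type cord (1.01 ± 0.06, adjusted p = 7.54e-11), both by edgeR. It reached 68.7 to 73.4 CPM in knockout SNI libraries, against 27.03 to 36.1 CPM in knockout naive ones, and 66.6 to 75.4 CPM in wild-type SNI libraries, against 32.7 to 37.2 CPM in wild-type naive ones.

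Olfml3, secreted and linked to blood vessel growth, rose 2.29-fold in knockout (1.2 ± 0.09) and 1.88-fold in wild-type cord (0.91 ± 0.09). The lysophosphatidylserine receptor gene Gpr34 rose 1.87-fold (0.90 ± 0.08) and 1.71-fold (0.78 ± 0.08), and P2ry13 1.92-fold (0.94 ± 0.09) and 1.47-fold (0.56 ± 0.09), in each case in knockout and in wild-type cord in that order. Fcrls rose 2.17-fold in knockout (1.12 ± 0.11) and 1.73-fold in wild-type cord (0.79 ± 0.12). Adjusted p by edgeR for these 4 genes ran from 2.28e-09 to 0.0002, and SNI libraries stood above all naive libraries of their genotype. Siglech had the largest estimate and the largest error of the 9, 1.42 ± 0.28 in knockout (adjusted p = 0.00621, edgeR) and 1.24 ± 0.26 in wild-type cord (adjusted p = 0.0128, edgeR). Its knockout call was lost when only those 2 groups were fitted, and its wild-type call was lost with limma on the authors' table without a filter.

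Sall1 was the exception. It had 38.5, 43.3, 43.0 and 41.1 CPM in knockout SNI cord, against 34.0, 34.7, 34.9, 34.5 and 37.2 CPM in knockout naive cord (1.18-fold, 0.24 ± 0.06, adjusted p = 0.00809, edgeR). In wild-type cord it had 38.6, 42.3, 45.6 and 41.0 CPM after SNI, against 40.3, 36.4, 35.4, 41.6 and 40.9 CPM in naive libraries (0.11 ± 0.05, adjusted p = 0.503, edgeR, 95% interval of the log2 fold change -0.00 to 0.21). The wild-type groups overlapped. Which cells of the cord the Sall1 reads came from was not tested. In the order of levels only P2ry12 and Cx3cr1 were above Sall1 in naive wild-type cord, whereas after SNI P2ry12 (20.7 ± 1.39 CPM per kb, n = 4), Cx3cr1 (15.6 ± 0.905), Tmem119 (14.3 ± 0.886) and Gpr34 (8.995 ± 1.003) were above its 7.95 ± 0.559 CPM per kb.

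**Figure D2:**
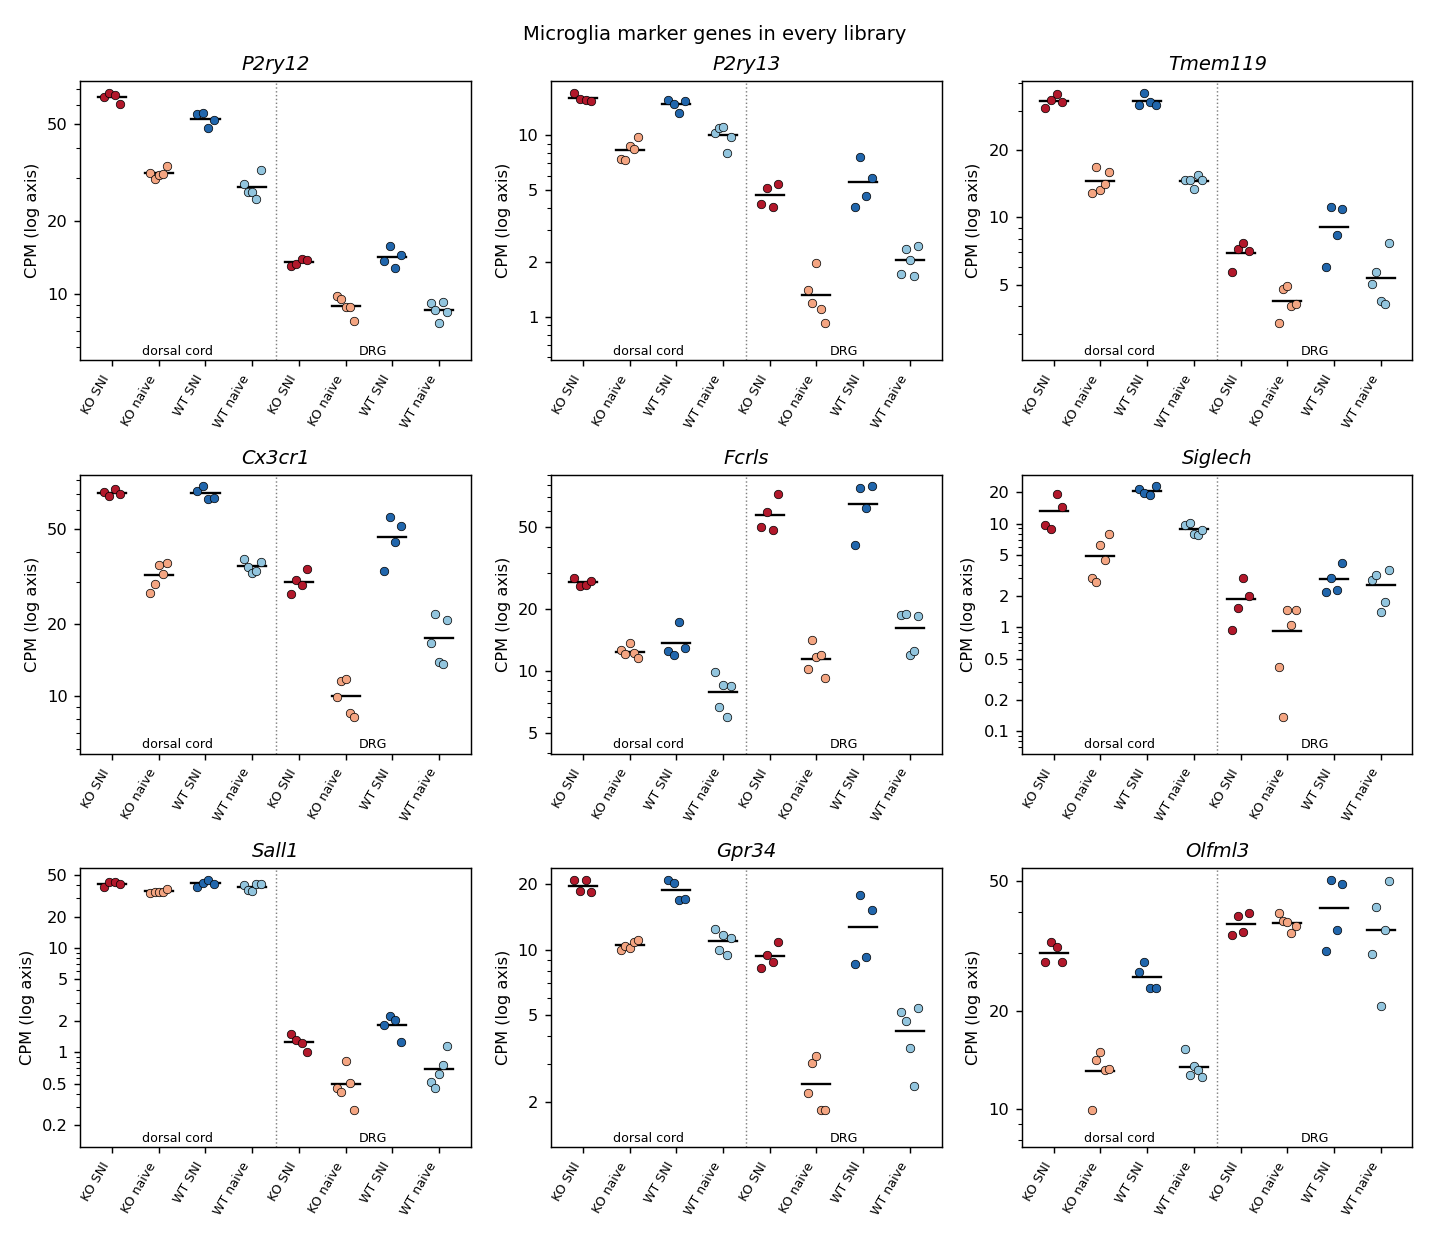
CPM of each gene in every library on a log axis, with cord groups left of the dotted line and DRG groups right of it (points are libraries, 4 per SNI and 5 per naive group, bars are group means; red, knockout SNI; light red, knockout naive; blue, wild-type SNI; light blue, wild-type naive). In cord P2ry12 is at 60.4 to 67.5 CPM in knockout SNI libraries and at 29.6 to 33.5 CPM in knockout naive ones, and Sall1 is nearly level across the 4 cord groups.

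Genes that mark microglia without being among the 9 rose along with them in cord. Of 14 other homeostatic genes, 12 rose in knockout (median 0.88) and 12 in wild-type cord (median 0.76), among them Cd33, a sialic acid binding lectin gene (1.34 ± 0.11 in knockout and 1.22 ± 0.11 in wild type). All 12 general myeloid genes rose in both genotypes (medians 1.36 and 1.19), with the complement gene C1qc at 1.56 ± 0.06 in knockout and 1.43 ± 0.06 in wild-type cord. Of 15 regulators and growth signals of microglia, 9 rose in knockout and 8 in wild-type cord. Csf1r, the growth factor receptor on which microglia depend, rose by 1.13 ± 0.05 in knockout and 1.05 ± 0.05 in wild-type cord, and the transcription factor gene Irf8 by 1.22 ± 0.11 and 1.17 ± 0.10. The fractalkine gene Cx3cl1, the ligand of Cx3cr1, was not called (-0.07 ± 0.05 in knockout and -0.12 ± 0.05 in wild type). Of the border and peripheral macrophage genes 0 of 9 tested were called in either genotype by edgeR, 0 had an unadjusted p under 0.05, and DESeq2 called 0. Their summed level was 14.1 to 20.5 CPM in knockout SNI cord, against 12.1 to 27.1 CPM in knockout naive cord, and 16.7 to 25.1 CPM in wild-type SNI cord, against 14.4 to 29.97 CPM in wild-type naive cord. None of them was at 0 in a whole group. The sums of SNI and naive libraries overlapped in both genotypes.

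In the injured ganglion 7 of the 9 genes rose in knockout (15.1% of all genes tested did, and 28.5% changed either way) and the same 7 in wild-type mice (12.6%, and 24.9% either way). Siglech and Olfml3 were not called. The median log2 fold change of the 9 was 1.33 in knockout and 1.37 in wild-type DRG, beside medians of 0.01 and -0.01 over all genes. The largest rise among the 9 was that of the scavenger receptor gene Fcrls. It had 49.9, 59.4, 48.5 and 72.3 CPM in knockout SNI DRG, against 10.3, 14.1, 11.7, 11.9 and 9.24 CPM in knockout naive DRG (5.03-fold, 2.33 ± 0.20, adjusted p = 7.1e-08, edgeR). In wild-type DRG it had 40.8, 77.1, 61.7 and 79.2 CPM after SNI, against 18.7, 18.9, 11.96, 12.4 and 18.5 CPM in naive libraries (4.02-fold, 2.01 ± 0.19, adjusted p = 3.7e-07, edgeR). SNI and naive libraries were far apart in both genotypes.

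The receptor genes rose less. Gpr34 rose 3.83-fold in knockout (1.94 ± 0.26) and 2.98-fold in wild-type DRG (1.57 ± 0.24). P2ry13 rose 3.52-fold in knockout (1.81 ± 0.21) and 2.67-fold in wild-type DRG (1.42 ± 0.20), on 20 to 48 reads per knockout naive library and 38 to 69 per wild-type naive library. Cx3cr1 rose 3.01-fold in knockout (1.59 ± 0.17) and 2.65-fold in wild-type DRG (1.41 ± 0.16). Adjusted p by edgeR for these 3 genes ran from 1.03e-06 to 7.72e-05. P2ry12, by contrast, rose only 1.51-fold in knockout (0.59 ± 0.08) and 1.66-fold in wild-type DRG (0.73 ± 0.08). It had 13.01, 13.2, 13.9 and 13.7 CPM in knockout SNI DRG, against 9.77, 9.46, 8.8, 8.82 and 7.67 CPM in knockout naive DRG. Wild-type SNI DRG had 13.7, 15.8, 12.8 and 14.5 CPM, against 9.12, 8.53, 7.53, 9.27 and 8.37 CPM in wild-type naive DRG. No SNI library overlapped a naive one for P2ry12.

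Sall1, the lowest of the 9 in DRG, rose 2.51-fold in knockout (1.33 ± 0.29, adjusted p = 0.002, edgeR) and 2.59-fold in wild-type DRG (1.37 ± 0.27, adjusted p = 0.000774, edgeR). It reached 1.02 to 1.49 CPM in knockout SNI DRG, against 0.277 to 0.822 CPM in knockout naive DRG, and 1.25 to 2.21 CPM in wild-type SNI DRG, against 0.458 to 1.14 CPM in wild-type naive DRG. These levels stayed far below those of cord. Tmem119 rose 1.63-fold in knockout (0.71 ± 0.20, adjusted p = 0.0108, edgeR), a call that was lost without libraries A2 and A4, and 1.69-fold in wild-type DRG (0.76 ± 0.19, adjusted p = 0.00611, edgeR). Olfml3 had a log2 fold change of -0.01 ± 0.19 in knockout (95% interval -0.38 to 0.36) and 0.22 ± 0.19 in wild-type DRG (-0.15 to 0.59). Siglech had 1.02 ± 0.47 (0.11 to 1.93) in knockout and 0.18 ± 0.41 (-0.62 to 0.98) in wild-type DRG, on 3 to 100 reads per library. Siglech thus missed the adjusted threshold in both genotypes (adjusted p = 0.116 in knockout and 0.804 in wild type, edgeR), although its knockout interval lay above 0.

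Macrophage genes moved together with the set in DRG. All 10 border and peripheral macrophage genes rose in knockout (median 1.79) and 8 of 10 in wild-type DRG (median 1.47), with Ms4a7 at 2.44 ± 0.26 in knockout and 2.11 ± 0.24 in wild type. Their summed level was 205 to 328 CPM in knockout SNI DRG, against 67.4 to 109 CPM in knockout naive DRG. In wild-type DRG it was 207 to 395 CPM after SNI, against 82.7 to 155 CPM in naive libraries. SNI and naive sums did not overlap, no gene of the list was at 0 in a whole group, and the part of these cells in the rises above was not tested. General myeloid genes rose too, 12 of 12 in knockout (median 1.67) and 11 of 12 in wild-type DRG (median 1.25). The other homeostatic microglia genes were less uniform: 7 of 14 rose and 1 fell in knockout (median 0.29), and 9 rose in wild-type DRG (median 0.58). The one that fell in knockout DRG was the fructose transporter gene Slc2a5 (-1.25 ± 0.29, adjusted p = 0.00267, edgeR), with -0.23 ± 0.27 in wild type, where it was not called. Of 15 regulators and growth signals of microglia, 10 rose and 2 fell in DRG of each genotype (medians 0.61 in knockout and 0.55 in wild type). The largest rise of that list was that of Csf1, the growth factor that injured sensory neurons are known to make for microglia. It was 3.03 ± 0.13 in knockout and 2.98 ± 0.13 in wild-type DRG. Cask, the gene around Gpr34, changed by 0.29 ± 0.10 in knockout and 0.33 ± 0.10 in wild-type DRG, both called, and Med12l, around P2ry12 and P2ry13, was not called after SNI in either tissue.

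**Figure D3:**
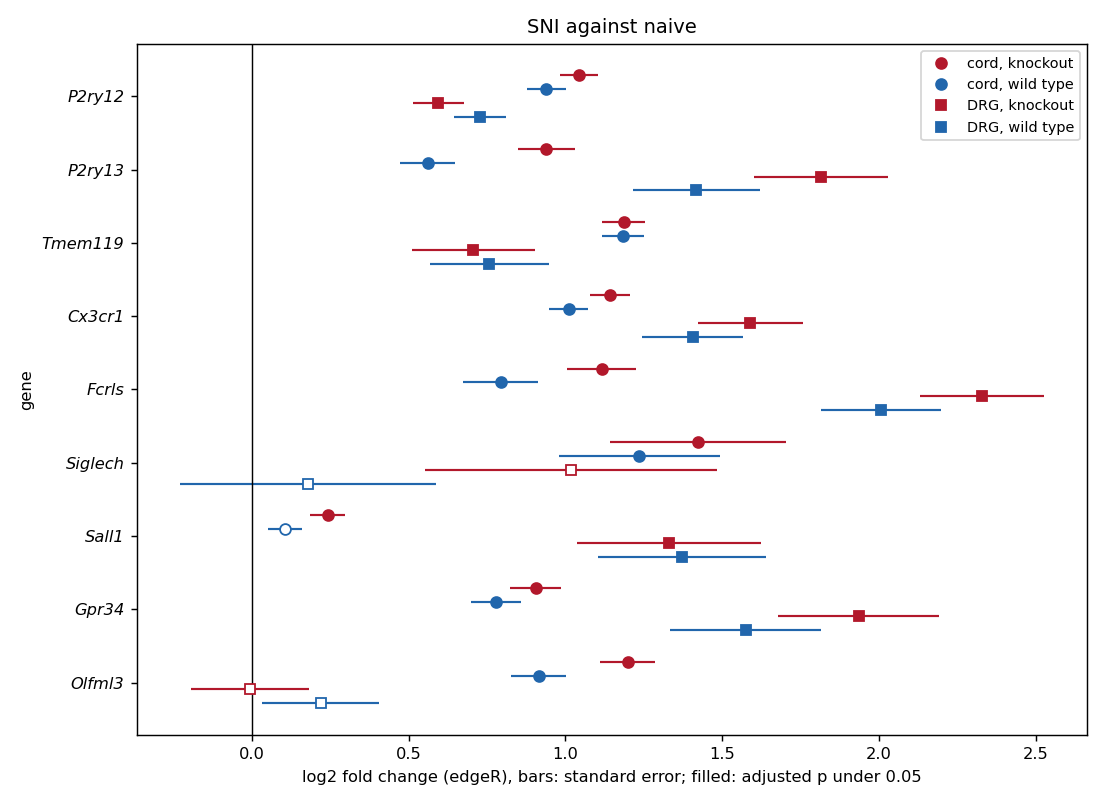
Log2 fold change of SNI against naive libraries for each gene (points, edgeR; whiskers, standard error; circles, cord; squares, DRG; red, knockout; blue, wild type; filled, adjusted p under 0.05). Fcrls has the largest rise in DRG, at 2.33 and 2.01, while the open points are Sall1 in wild-type cord and Siglech and Olfml3 in DRG.

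The injury responses of the tissues were then compared directly in the fit over 36 libraries, as the response in cord minus that in DRG. In knockout mice 6 genes differed (17.2% of all genes tested did), 2 with a larger response in cord (10.5%) and 4 with a smaller one (6.69%). In wild-type mice 5 differed (12.5%), 1 larger in cord (6.92%) and 4 smaller (5.59%). Smaller in cord in both genotypes were Fcrls (-1.18 ± 0.24 in knockout and -1.2 ± 0.25 in wild type), Sall1 (-1.05 ± 0.25 and -1.25 ± 0.21), Gpr34 (-0.99 ± 0.27 and -0.78 ± 0.25) and P2ry13 (-0.83 ± 0.23 and -0.84 ± 0.21). Olfml3 was larger in cord (1.24 ± 0.23 in knockout, adjusted p = 0.000136, and 0.70 ± 0.22 in wild type, adjusted p = 0.0344, both by edgeR). P2ry12 differed in knockout (0.49 ± 0.10, adjusted p = 0.000708) and not past the threshold in wild type (0.22 ± 0.10, adjusted p = 0.179), both by edgeR. The wild-type calls of Gpr34 and Olfml3 were the weak ones. The wild-type count was 3 without library F7 of SNI cord or without library B3 of naive DRG, and 3 when no filter was applied.

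Knockout and wild-type mice were compared in each state, which asks whether loss of the targeted gene goes with another level of the markers. In cord the clearest difference was that of Fcrls, which was higher in knockouts. Knockout naive cord had 12.6, 12.1, 13.6, 12.3 and 11.5 CPM, against 9.87, 6.69, 8.51, 5.98 and 8.44 CPM in wild-type naive cord (1.57-fold, log2 fold change of knockout over wild type 0.65 ± 0.11, adjusted p = 0.000535, edgeR). After SNI knockout cord had 28.2, 25.9, 26.3 and 27.3 CPM, against 12.5, 11.9, 17.3 and 13.002 CPM in wild-type cord (1.97-fold, 0.98 ± 0.12, adjusted p = 1.4e-05, edgeR). All knockout libraries stood above all wild-type libraries in both states. The sign of the difference within each letter of the titles followed from that separation and adds no support of its own. Its size, on the scale of log2(CPM + 0.5), was 0.57 within A, 0.81 within B, 0.43 within C (1 library a genotype), 1.12 within E and 0.82 within F. Both Fcrls calls in cord held in every alternative tried, each single library left out included.

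The ADP receptor gene P2ry12 was also higher in knockout cord, by less. After SNI it was 1.23-fold higher (0.29 ± 0.06, adjusted p = 0.00445, edgeR), with 60.4 to 67.5 CPM in knockout libraries, against 48.1 to 55.7 CPM in wild-type libraries, which did not overlap. Fcrls and P2ry12 were the 2 of 9 genes higher in knockout SNI cord (2.95% of all genes tested were), and 0 were lower (3.31%), with 6.26% of all genes changed either way. None of the other 7 had an adjusted p under 0.05 there. In naive cord P2ry12 was 1.14-fold higher (0.19 ± 0.06, adjusted p = 0.0302, edgeR), with 29.6 to 33.5 CPM in knockout libraries, against 24.5 to 32.2 CPM in wild-type libraries, which overlapped. Its host gene Med12l differed by 0.18 ± 0.05 in the same naive comparison.

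In naive cord 5 of the 9 genes differed between the genotypes, 2 higher (9.79% of all genes tested were) and 3 lower (9.94%), with 19.7% of all genes changed either way. Lower in knockouts were Siglech (-0.86 ± 0.27, adjusted p = 0.0404), P2ry13 (-0.26 ± 0.09, adjusted p = 0.0356) and Sall1 (-0.15 ± 0.05, adjusted p = 0.0453), all by edgeR. Sall1 had 34.0 to 37.2 CPM in knockout libraries, against 35.4 to 41.6 CPM in wild-type libraries. The count of 5 rested on single libraries. It was 1 without knockout library A6 or B8, and 2 without knockout library A8 or wild-type library A5, A7, B5 or C5. It was 3 without wild-type library B7 or knockout SNI library F8. Calls over all genes, 3718 in the main fit, ran from 2525 to 3900 when each library was left out. Blood genes moved with genotype here, 4 of 5 lower, with a summed level of 137 to 172 CPM in knockout libraries, against 170 to 482 CPM in wild-type naive cord, sums that overlapped by a narrow margin. With a blood score as covariate 1 of the 9 was called, Fcrls, and calls over all genes fell from 3718 to 645. Of the general myeloid genes 6 of 12 were lower, among them Tyrobp, an adaptor of myeloid receptors (-0.48 ± 0.08), and of the other homeostatic genes 6 of 14 were lower and 1 was higher, the crystallin gene Crybb1 (1.17 ± 0.14, adjusted p = 1.77e-06, edgeR). The median of the 9 was -0.06, beside -0.01 over all genes.

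Siglech was the most variable of the 9 among knockouts, and its low values fell on particular letters. In knockout naive cord it had 2.99 and 2.76 CPM in the A libraries, 6.19 and 4.5 CPM in the B libraries and 7.9 CPM in the C library, against 9.61, 10.2, 7.84, 7.8 and 8.74 CPM in wild-type naive cord. After SNI it had 9.6 and 8.94 CPM in the E libraries and 19.3 and 14.4 CPM in the F libraries of knockout cord, against 21.7, 19.6, 19.05 and 23.0 CPM in wild-type cord. The A and E knockouts were lowest, and the others lay between them and wild type or inside its range. After SNI the difference was not called (-0.67 ± 0.27, adjusted p = 0.17, edgeR). Within letters the difference of knockout and wild type on the log2(CPM + 0.5) scale was -1.63 for A, -0.53 for B, -0.14 for C, -1.11 for E and -0.32 for F. The labels do not say what the letters stand for.

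In the ganglion, too, the A libraries of the naive and the E libraries of the SNI knockouts had the lowest Siglech values of their group. Knockout naive DRG had 0.414 and 0.137 CPM in the A libraries (10 and 3 reads), 1.48 and 1.06 CPM in the B libraries and 1.48 CPM in the C library, against 2.88, 3.16, 1.39, 1.77 and 3.56 CPM in wild-type naive DRG. The A libraries here are A2 and A4, those with conflicting labels. In knockout SNI DRG it had 0.939 and 1.54 CPM in the E and 2.99 and 1.99 CPM in the F libraries, against 2.19, 3.0, 2.28 and 4.13 CPM in wild-type SNI DRG. Within letters the DRG difference was -2.21 for A, -0.24 for B, -1.04 for C, -0.84 for E and -0.28 for F on the log2(CPM + 0.5) scale, so that B and C stood in the other order than in cord. Plasmacytoid dendritic cell genes, the other known source of Siglech, summed to 6.24 to 11.6 CPM in knockout libraries, against 6.47 to 15.1 CPM in wild-type naive DRG, and to 1.77 to 3.03 CPM in knockout libraries, against 2.01 to 3.51 CPM in wild-type naive cord. By edgeR 0 of 3 tested differed in naive DRG (1 at an unadjusted p under 0.05) and 0 of 2 in naive cord (0 unadjusted), and DESeq2 called 0 in both. The sums of the genotypes overlapped, and the part of these cells in the Siglech difference was not tested.

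**Figure D4:**
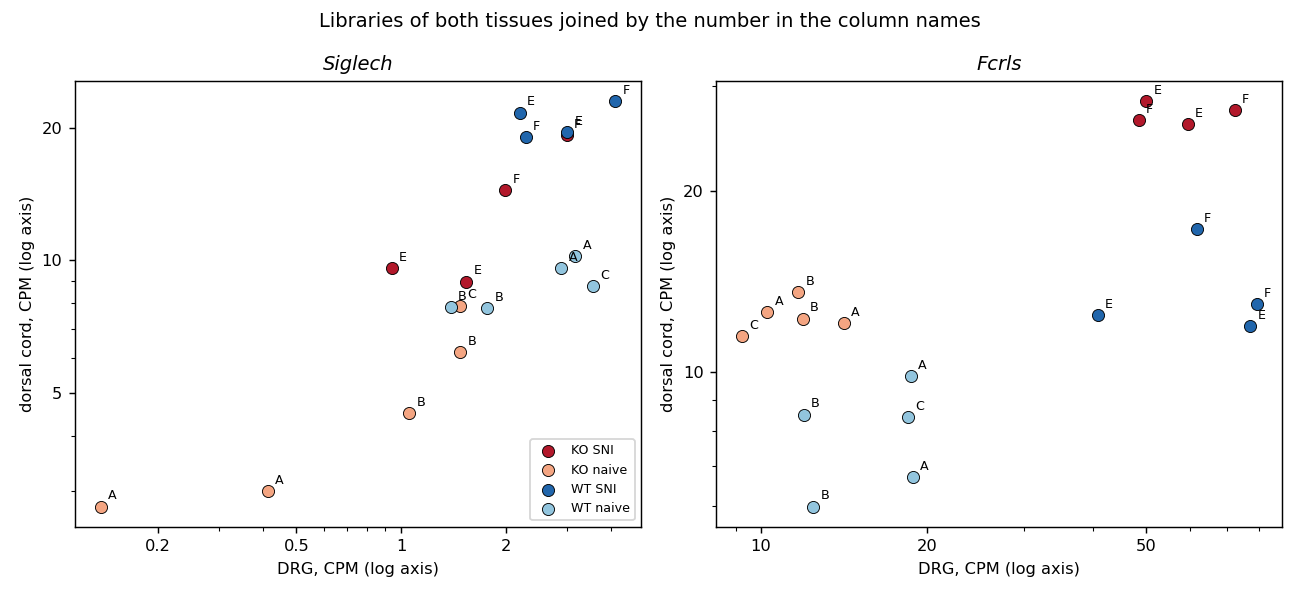
Siglech (left) and Fcrls (right) in cord against DRG, both in CPM on log axes, for libraries of both tissues that share the number in the column names (1 point per number, letter of the title beside it; red, knockout SNI; light red, knockout naive; blue, wild-type SNI; light blue, wild-type naive). The A knockouts have the lowest Siglech of all in both tissues, at 0.137 and 0.414 CPM in DRG, while for Fcrls the knockouts lie above the wild types of the same state in cord and not in DRG.

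In naive DRG 4 of the 9 genes were lower in knockouts (15.4% of all genes tested were) and 0 were higher (12.8%), with 28.2% of all genes changed either way. They were Siglech (-1.48 ± 0.43, adjusted p = 0.0197), Gpr34 (-0.81 ± 0.25, adjusted p = 0.0266), Cx3cr1 (-0.80 ± 0.16, adjusted p = 0.00261) and P2ry13 (-0.63 ± 0.21, adjusted p = 0.0351), all by edgeR. Cx3cr1 had 9.86, 11.5, 11.7, 8.49 and 8.18 CPM in knockout naive DRG, against 16.6, 22.1, 13.9, 13.6 and 20.8 CPM in wild-type naive DRG. Knockout libraries were all below wild-type libraries, which fixes the sign of the difference within each letter. Its size there was -0.82 in A, -0.44 in B and -1.29 in C on the log2(CPM + 0.5) scale. Gpr34 had 1.84 to 3.25 CPM in knockout libraries, against 2.38 to 5.41 CPM in wild-type libraries, which overlapped. Fcrls, higher in knockout cord, was at -0.49 ± 0.19 in naive DRG and missed the threshold (adjusted p = 0.0628, edgeR).

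Blood genes moved with genotype in naive DRG as well, and so did genes of several other lists. The 5 blood genes were all lower in knockouts, with a summed level of 191 to 610 CPM in knockout libraries, against 737 to 3540 CPM in wild-type libraries, and these sums did not overlap. Lower too were 6 of 6 neutrophil, 6 of 6 cell cycle, 7 of 12 general myeloid and 5 of 10 border and peripheral macrophage genes, the last with sums of 67.4 to 109 CPM in knockout libraries, against 82.7 to 155 CPM in wild-type libraries. Of 5 fibroblast genes 3 were lower, and of 14 other homeostatic genes 5 were. Of 6 DRG neuron genes 2 were higher and 0 lower. Their sums were 2843 to 3242 CPM in knockout libraries, against 1876 to 2943 CPM in wild-type libraries, which overlapped. What part such shifts have in the differences of the 9 genes was not tested. With a blood score as covariate 0 of the 9 genes were called, and calls over all genes fell from 5506 to 536. Without A2 and A4, the libraries with conflicting labels, 1 of the 9 was called, Cx3cr1, and 2626 of all genes were. The count of members was also 1 without A2 alone (3248 of all genes) or without wild-type library C1 (3032). It was 2 without knockout library B4 (4146 of all genes) or C2 (3934) or wild-type library A3 (3084). In SNI DRG 1 of 9 was lower (2.71%) and 0 higher (2.39%, with 5.1% either way), Cx3cr1 being the one, with 26.6, 30.5, 29.1 and 33.8 CPM in knockout and 33.4, 55.9, 43.9 and 51.4 CPM in wild-type libraries (-0.62 ± 0.17, adjusted p = 0.039, edgeR). The groups overlapped in 1 library each, and this call was lost when E2, E4 or F2 of the knockouts or E3 or F3 of the wild types was left out, and in 6 other alternatives.

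**Figure D5:**
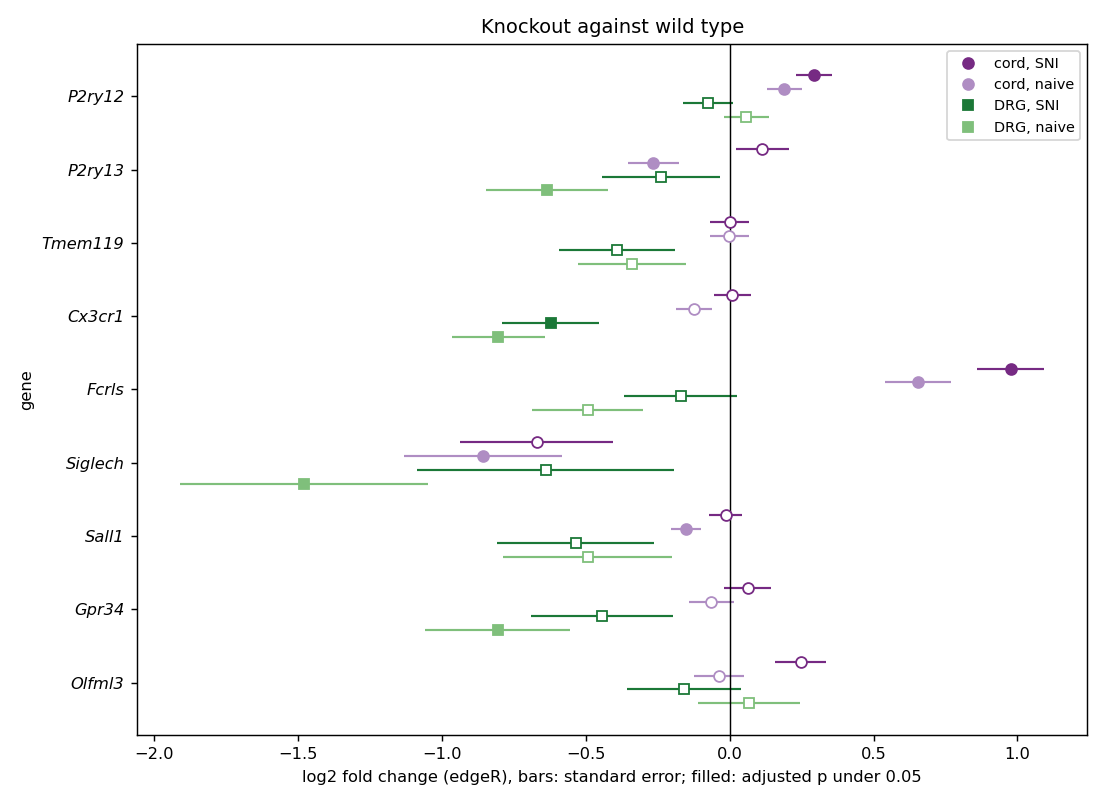
Log2 fold change of knockout against wild type for each gene (points, edgeR; whiskers, standard error; circles, cord; squares, DRG; dark, SNI; light, naive; filled, adjusted p under 0.05). Fcrls stands at 0.98 and 0.65 in cord and below 0 in DRG.

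The genotype effect was compared between the tissues as the effect in cord minus that in DRG, a comparison added after the values of each tissue were seen. For Fcrls it was 1.13 ± 0.24 in naive mice (adjusted p = 0.00229, edgeR) and 1.16 ± 0.25 after SNI (adjusted p = 0.0159, edgeR). The SNI call was lost without library E2 or F3 of DRG. In naive mice Cx3cr1 (0.66 ± 0.18, adjusted p = 0.00962, edgeR) and Gpr34 (0.73 ± 0.26, adjusted p = 0.0492, edgeR) also differed, so that 3 of 9 were higher (8.24% of all genes tested were), the call of Gpr34 being lost in 27 of the 36 fits that left out 1 library. After SNI 1 of 9 was higher (0.218%) and 0 were lower (0.305%, with 0.524% either way), and 2 were called without library E1 of DRG. These comparisons use the same libraries as those within each tissue.

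Whether the knockout changed the response to injury was asked with the interaction of genotype and injury. No gene of the 9 was called in cord (0% of all genes tested were) or in DRG (0.0256%, of which 0.0205% higher and 0.00513% lower), and DESeq2 called 0 in both tissues. At an unadjusted p under 0.05 by edgeR there were 2 in cord, P2ry13 (0.38 ± 0.13) and Olfml3 (0.28 ± 0.13), and 0 in DRG. Over all genes tested 1150 of 18843 in cord and 1160 of 19496 in DRG were under that limit. The 9 estimates ran from 0.00 to 0.38 in cord and from -0.23 to 0.84 in DRG, knockout response minus wild-type response on the log2 scale. For P2ry12 the 95% interval was -0.07 to 0.28 in cord and -0.36 to 0.10 in DRG. For Siglech it was -0.56 to 0.94 in cord and -0.38 to 2.06 in DRG, so the interval was widest for that gene in DRG.

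The genes most like each member were found over the 36 libraries as those with the smallest root mean square difference of log2(CPM + 0.5), centred on each gene's mean, among 14490 genes. Tissue, injury and genotype all feed this measure, and it is given as a description. P2ry12 and Tmem119 were each other's nearest gene (0.258). Cx3cr1 was nearest to Csf1r (0.159), and then to Gpr34 (0.195). Fcrls was nearest to no member, but to Ms4a6d (0.339), C3ar1 (0.377), which encodes a complement receptor, and Fyb (0.418). Siglech was nearest to Selplg (0.470), a selectin ligand gene of the homeostatic list. Gpr34 was nearest to Cx3cr1 (0.195), P2ry13 to Efhd2 (0.347) and Olfml3 to Fli1 (0.257), a transcription factor gene. Sall1 was nearest to Tmem88b (0.214), Atp13a4 (0.297) and Gm3764 (0.311), and neither another of the 9 nor a gene of the homeostatic or myeloid lists was among its nearest 10.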

How the data were processed

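Per the labels' protocols, RNA was purified with a column kit and sequenced as stranded mRNA libraries. FastQC 0.11.5, HISAT2, RSEM and the build GRCm38 are named, without roles, in the submitters' processing notes. The authors deposited expected counts of 55487 genes in a raw table. In its column E1, for which the unit other was recorded, the deposited cells had decimal commas in 9150 places and a letter in 1. Commas became points, and 1780.86 was put in that cell, the value of the second table divided by its factor. That second table, also from the authors, holds signal values of 52999 genes (raw column times 1 factor) and was used for the limma alternatives.

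Expected counts were rounded and fitted with edgeR 4.0.16 in R 4.3.3 (TMM scaling, filterByExpr, robust quasi-likelihood F tests), per tissue over 18 libraries (19496 genes in DRG, 18843 in cord) and jointly over 36 (20626 genes). SE was the log2 fold change over the square root of F, and intervals were 1.96 SE wide to each side. The procedure was tested on simulated data. Alternatives used DESeq2 1.42.0, limma 3.58.1 on log2(value + 1) or log2(value + 0.1), other scaling, no filter, fewer groups, a blood covariate, blocks and each library left out. The conflicting labels of A2 and A4 were settled by the genotype field. Numbers in the column names did not meet the set limit for pairing libraries. Replicates of a group differed by more than sampling noise (mean chi-square per gene 2.54 to 56.7). The members and lists were chosen with earlier results of these data known. Named were all 9 members in every comparison, up to 3 called genes of a list with the lowest adjusted p, overlapping genes, and up to 3 nearest genes by likeness. Exceptions chosen after their values were seen were Cx3cl1 and Slc2a5. Values of some genes these rules would name, the targeted gene among them, are not reported here.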

Additional observations from a re-analysis of the deposited data

Results flagged for a closer look

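In 1 of 72 groups of libraries a single library stood apart: Sall1 had 37.2 CPM in library C6 of knockout naive cord, above the other 4 at 34.0 to 34.9 CPM. About 1 group in 20 is picked out this way by chance.

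The injury response differed between cord and DRG by a test of the difference itself. In knockouts the differences were 0.49 for P2ry12, 1.24 for Olfml3, -0.83 for P2ry13, -1.18 for Fcrls, -1.05 for Sall1 and -0.99 for Gpr34 on the log2 scale. In wild types they were 0.70 for Olfml3, -0.84 for P2ry13, -1.20 for Fcrls, -1.25 for Sall1 and -0.78 for Gpr34.

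The knockout effect differed between cord and DRG in naive mice for Fcrls (1.13), Cx3cr1 (0.66) and Gpr34 (0.73), and after SNI for Fcrls (1.16).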

How the results depend on the processing

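The counts of genes called after SNI stayed within 1.5 times in every alternative run. They were 9 and 8 of 9 in knockout and wild-type cord and 7 of 9 in DRG of either genotype. No alternative could set a letter effect apart from injury, and letter blocks were run for genotype comparisons alone. Also within 1.5 times were the 9 of naive cord against DRG, the 6 of the knockout injury difference and the 2 of the genotype in SNI cord. So were the 3 of the naive genotype difference of cord and DRG and the 0 of both interactions. The genotype count of naive DRG (4) was 0 with the blood covariate and 1 without the 2 libraries with conflicting labels. It ran from 1 to 5 when each library was left out. Calls over all genes there, 5506 in the main fit, were 536, 2626 and 3032 to 6638 in the same order. The genotype count of naive cord (5) was 1 with the blood covariate, 2 with the compared groups alone, and 1 to 5 with a library left out. Over all genes 3718 were called there in the main fit, and 645, 3125 and 2525 to 3900 in the same order. The genotype count of SNI DRG (1) was 0 in the 3 limma fits, with no filter, with the compared groups alone and without the 2 libraries. It was 0 to 1 with a library left out. The wild-type injury difference of cord and DRG (5) was 3 with no filter and 3 to 5 with a library left out, and the SNI genotype difference of cord and DRG (1) was 0 to 2. The cause of these shifts was not tested. No called value changed sign in any of 4275 single-gene values, 139 lost and 12 gained a call, and 83 uncalled values changed sign. Pairing required every same-numbered correlation to be above 0.1. Between genotypes they ran from -0.29 to 0.53, and between tissues from -0.08 to 0.39, with most tissue pairs above 0.1, so the limit was missed in both, although same-numbered cord and DRG libraries mostly deviated together. With the letter as a replicate block the genotype counts were 3 in naive DRG, 1 in SNI DRG, 5 in naive cord and 2 in SNI cord. Over all genes 5137, 884, 3376 and 1074 were called in the same order. With the number as a block, added after the columns were seen, the counts were 5, 1, 4 and 2, and 5558, 913, 3523 and 1116 over all genes. With the number as a replicate block across tissues the counts were 9 for cord against DRG, 6 and 5 for the injury difference in knockout and wild type, and 2 and 1 for the genotype difference in naive and SNI mice. Low depth limits Siglech and Sall1 in DRG, at 3 and 6 reads in the lowest libraries.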
